A study of Mus musculus with 8 samples.

Results

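The RNAs described here are the small structured noncoding RNAs that were counted alongside messenger RNAs in cultured embryonic mouse heart cells. They were taken by name from the table of coding genes: small nucleolar RNAs (snoRNAs), small Cajal body RNAs (scaRNAs), small nuclear RNAs (snRNAs), 7SK and 7SL, the RNA subunits of RNase P and RNase MRP, and the Y, vault and telomerase RNAs. Of 29844 rows in the table, 178 matched these names, and 34 of those had 10 or more counts in at least 4 of the 8 libraries and are the members. The 34 comprise 13 box C/D snoRNAs, 9 box H/ACA snoRNAs, 2 scaRNAs, 3 snRNAs, 4 rows of 7SK and 7SL and 3 RNase RNAs. One further matching name, Snorc, is a protein gene; it was listed at 0 and is left out below.

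All 8 libraries were made from total RNA of embryonic cardiomyocytes from mice of the B6.Cg-Tg(HIST1H2BB/EGFP)1Pa/J background, which carries a fluorescent histone H2B transgene. Hearts were taken at E18.5, digested to single cells and cultured for 4 days on polydimethylsiloxane, a silicone rubber. In the soft group (n = 4) the rubber had an elastic modulus of about 10 kPa, and in the stiff group (n = 4) about 150 kPa, and the study asked what this difference does to RNA levels. Whether the libraries of a group came from separate cultures is not given, so the spread between them may be technical, and the library codes of the 2 groups have different stems, so that a batch marked by the code could not be told apart from the substrate. The cultures held more than 1 cell type: 6 cardiomyocyte markers summed to between 20197 and 37201 CPM (counts scaled to an equal library size with TMM factors) over the 8 libraries, and 5 fibroblast markers to between 6742 and 12662 CPM. The 3 endothelial markers stayed between 33.3 and 68.7 CPM, the 3 leukocyte markers between 13.4 and 27.9 CPM, the 3 smooth muscle markers between 610 and 1376 CPM (highest in soft 3), and the 2 haemoglobin genes were listed at 0. Library totals ran from 27646471 to 34693673 counts.

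Small structured RNAs act as RNA-protein machines rather than as templates for protein. Box C/D snoRNAs guide 2'-O-methylation and box H/ACA snoRNAs guide pseudouridylation of ribosomal RNA, mostly after being cut out of the introns of host genes, while scaRNAs do the same for the snRNAs of the spliceosome. 7SK holds the elongation kinase P-TEFb in an inactive complex, a route studied in the growth of heart muscle cells, and 7SL is the scaffold of the signal recognition particle. RNase P trims the leader of transfer RNA precursors and RNase MRP cleaves precursor ribosomal RNA. Most of these RNAs carry no poly(A) tail, as is also true of the messenger RNAs of replication-dependent histones.

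Rn7sk, Rmrp and Rpph1, the members with the most counts, are read from their own promoters by RNA polymerase III. RefSeq promoter windows of 3 neighbouring genes lie beside Rpph1, Rmrp and Rn7sk and are shown because these 3 RNAs hold most of the counts described below. The window of Parp2 (GRCm38.p6, chr14:50807666-50807965, plus strand) covers the 106 highest-numbered bases of the Rpph1 span, which runs from 50807447 to 50807771, and the sequence beyond it. The window of Ccdc107 (chr4:43493115-43493414, plus strand) begins 55 bases past the Rmrp span, from 43492785 to 43493059. The window of C920006O11Rik (chr9:78175664-78175963, plus strand) begins 30 bases past the Rn7sk span, from 78175302 to 78175633. Capitals mark each match to TATAA or its reverse complement TTATA and to the octamer ATTTGCAT or its reverse complement ATGCAAAT.
Parp2 window beside Rpph1: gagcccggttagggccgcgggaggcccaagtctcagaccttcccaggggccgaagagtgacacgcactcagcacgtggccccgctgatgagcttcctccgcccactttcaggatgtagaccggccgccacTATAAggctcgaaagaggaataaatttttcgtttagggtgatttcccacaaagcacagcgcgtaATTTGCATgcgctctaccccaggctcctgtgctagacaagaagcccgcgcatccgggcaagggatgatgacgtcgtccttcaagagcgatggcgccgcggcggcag
Ccdc107 window beside Rmrp: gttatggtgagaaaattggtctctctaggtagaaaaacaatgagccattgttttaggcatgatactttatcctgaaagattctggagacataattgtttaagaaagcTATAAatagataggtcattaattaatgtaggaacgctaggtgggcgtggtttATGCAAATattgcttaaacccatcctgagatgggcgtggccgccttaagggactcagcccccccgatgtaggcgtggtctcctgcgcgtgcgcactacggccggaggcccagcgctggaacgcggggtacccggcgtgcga
C920006O11Rik window beside Rn7sk: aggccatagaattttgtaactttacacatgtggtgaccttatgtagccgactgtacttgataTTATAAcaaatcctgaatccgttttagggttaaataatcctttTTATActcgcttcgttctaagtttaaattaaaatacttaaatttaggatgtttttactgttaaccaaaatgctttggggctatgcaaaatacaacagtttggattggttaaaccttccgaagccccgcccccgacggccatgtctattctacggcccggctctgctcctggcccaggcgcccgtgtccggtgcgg
The Rpph1 side held TATAA 25 bases and the octamer 89 bases from the edge of its span, and the Rmrp side held TATAA 163 bases and the reverse octamer 215 bases from it. The Rn7sk side held TATAA and TTATA overlapping each other, a further TTATA and no octamer. Of 27025 RefSeq promoter windows of 300 bases, 25.5% held TATAA on either strand, 1.75% the octamer and 0.629% both. These matches describe letters only, and no binding was measured. The bases between the windows and the spans of Rmrp and Rn7sk are not shown. Whether a marked match belongs to the promoter of the RNA beside it was not tested.

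The rows of the table were counted very unevenly, and whether a row held counts went with the gene around it. Of the 177 structured RNA rows, 127 were at 0 in all 8 libraries, 16 were counted below the minimum and 34 were members. Of 168 with a RefSeq span, 102 lay inside a gene that matched a row of its own in the coding table, and 98 of these were at 0 in every library. Of 42 inside a gene that matched no row of the table used here, 24 were at 0 and 14 were members. Of 24 inside no gene, 4 were at 0 and 10 were members. The 4 rows at 0 outside any gene were Rnu1b2, Rnu6, Rnu6-ps2 and Rnu7. Of the 24 inside unmatched genes, 17 were Snord116-like copies in Snhg14, a cluster of near-identical repeats. Snord64, also inside Snhg14, was a member with 209 counts. RNAs of repeat families can share reads with their copies, and the part of this in the rows at 0 was not tested. How the authors treated reads that fall on overlapping genes is not given in the sources used here, so a 0 in these rows does not show that the RNA was absent from the cells.

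**Figure D1:**
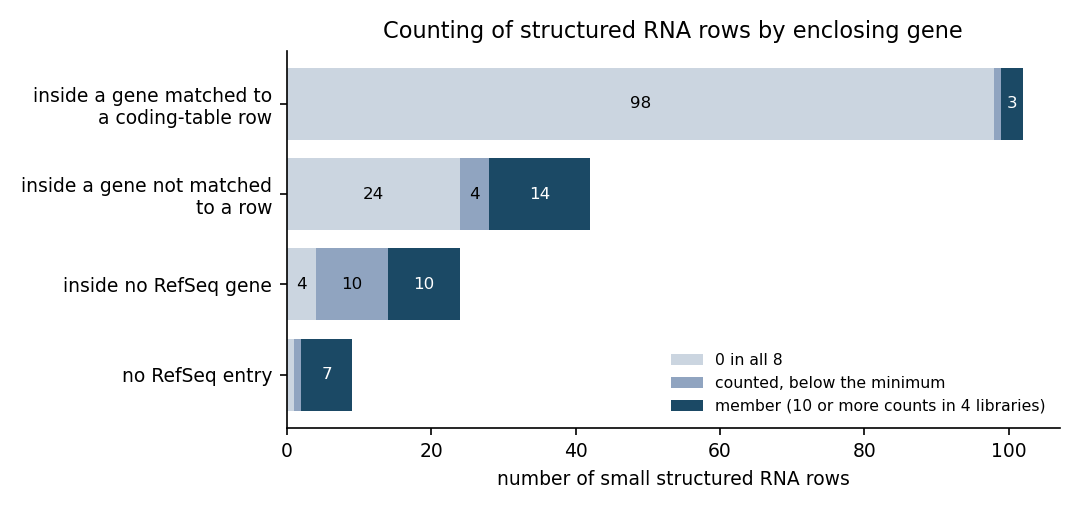
Number of small structured RNA rows (x axis) by the kind of gene that encloses them on GRCm38.p6 (y axis), split into rows at 0 in all 8 libraries, rows counted below the minimum, and members. Of 102 rows inside a gene that has its own coding-table row, 98 were at 0, against 4 of 24 rows inside no gene.

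The 3 members inside a gene with its own row were Snord47, Snora57 and Snora78, and another such RNA, Snord87, was counted below the minimum. Each of the 4 also lay inside a noncoding gene that matched no row: Gas5, 5730408K05Rik, Snhg9 and Snhg6, respectively. The same arrangement was found for 3 RNAs at 0 in all 8 libraries, Rnu3b1, Snord71 and Snord93. For Snora57 and Snora78 RefSeq places the 2 enclosing genes on opposite strands, and because strand handling is not given, reads from either could not be told apart. The 16 RNAs counted below the minimum included the telomerase RNA Terc, with 31 counts over all libraries, the vault RNA Vaultrc5 with 50, the Y RNAs Rny3 with 47 and Rny1 with 10, and the minor spliceosome RNA Rnu12 with 66. No member therefore stands for the Y, vault or telomerase RNAs.

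Among the members, the counts lay almost wholly in the longer RNAs. Outside the members, some long RNAs held few counts or none. Terc, with a span of 397 bases, had 31 counts, and Vaultrc5, with 345 bases, had 50. Scarna6, with 248 bases, and Snord17, with 221 bases, were at 0. The 8 members with a RefSeq span of 200 bases or more (Rn7sk, Rn7s1, Rn7s2, Rmrp, Rpph1, Rprl3, Scarna13 and Rnu3a) held 98.6% of all member counts, and the 19 with shorter spans held 0.941%, of which Scarna2, given only 61 bases by RefSeq, held 0.294%. Rn7sk alone held 83.9%. Per kilobase of span, Rn7sk stood at 12712 CPM, Rmrp at 1073, Rpph1 at 820, Rn7s2 at 247, Rn7s1 at 178 and Scarna13 at 123; no such level is given for Scarna2 because of its short RefSeq span. The snoRNA members with a span stood between 4.32 CPM per kilobase for Snora16a and 80.0 for Snora43. Of 2 Ensembl genes named Snora43, with 1 RefSeq span between them, ENSMUSG00000097052 is the member and the other was at 0.

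None of the 34 members passed the test between stiff and soft. All 34 were tested by edgeR with the whole table, and 0 had an adjusted p under 0.05 (0.0% of the 14059 genes tested did); their smallest adjusted p was 0.99997. Unadjusted p-values were under 0.05 for 0 members in edgeR, against 0.925% of all tested genes, and for 1 member each in DESeq2 and limma-voom, where adjusted calls were also 0. In addition, 0 members had soft and stiff libraries that did not overlap, against 1.29%. Estimates were lower on stiff for 24 members and higher for 10 (51.9% of all tested genes were lower), with a median log2 fold change of -0.40 against -0.01 over all tested genes. Without soft 4 the median was -0.25. The 95% interval of a member reached, at the median, 5.33-fold to either side of its estimate, against 1.51-fold over all genes. The reach differed between members: it was 1.42-fold for Rn7sk, 1.40-fold for Rn7s2, 1.41-fold for Rn7s1 and 1.44-fold for Scarna13. For Rmrp it was 3.09-fold and for Rpph1 6.33-fold. Differences below the reach of a member were mostly not detectable for that member. The reach is that of an unadjusted interval, so a difference above it need not pass the adjusted test. In these bulk libraries, fewer cells of a type and less RNA per cell cannot be told apart.

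**Figure D2:**
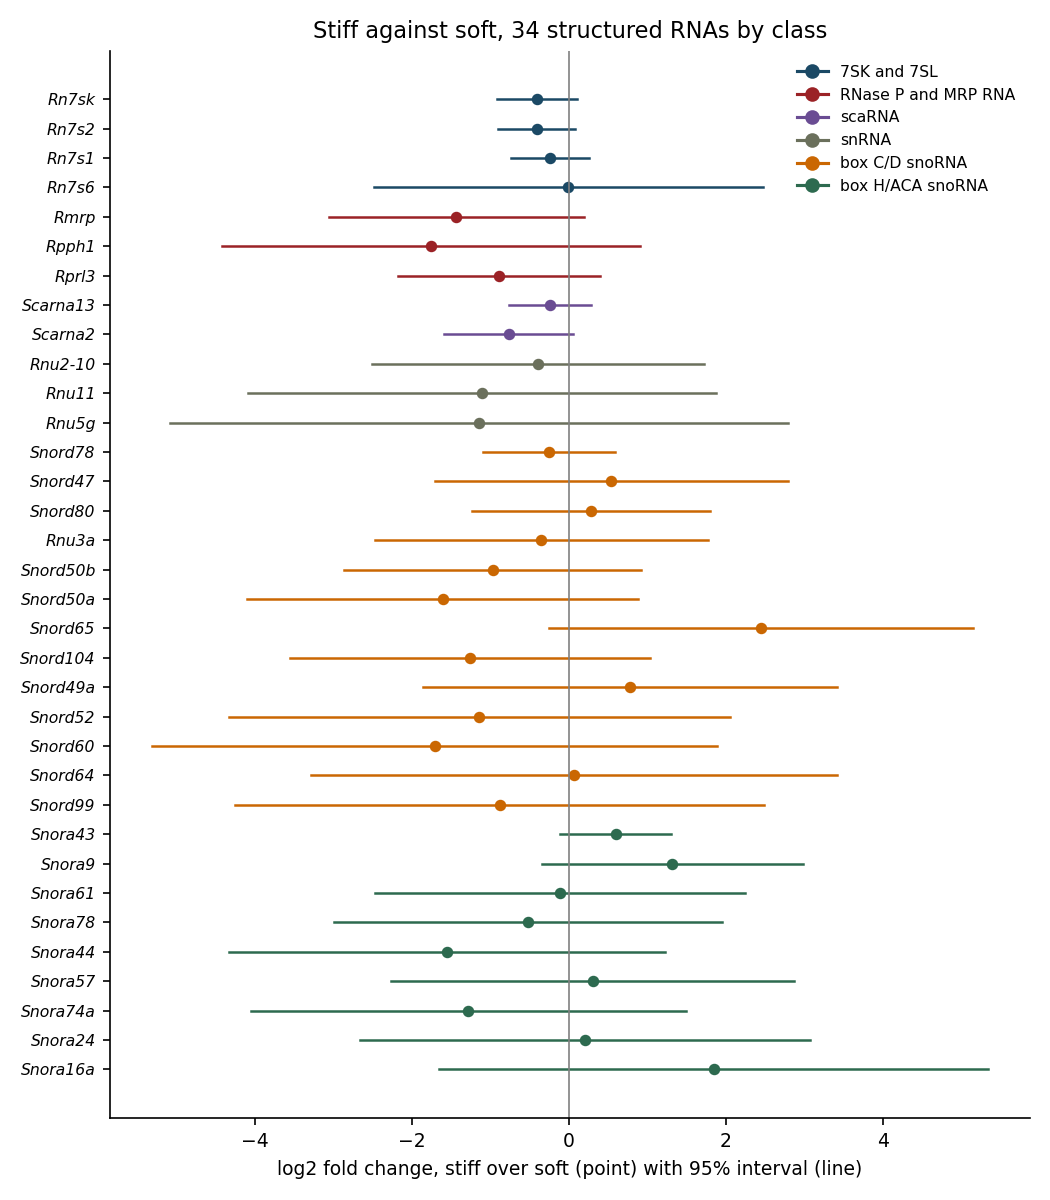
Log2 fold change of stiff over soft (x axis; point, edgeR estimate; line, unadjusted 95% interval) for the 34 members (y axis), coloured by class and ordered by level within it. Every interval includes 0, and those of the scarce snoRNAs and snRNAs are the widest.

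7SK, the inhibitor of P-TEFb, was the most abundant member. Soft libraries 1 to 4 held 3752, 3287, 5748 and 6457 CPM of Rn7sk (ENSMUSG00000065037), and stiff libraries 1 to 4 held 4273, 3072, 4506 and 2669.5 CPM. Soft 3, soft 4 and stiff 3 were the highest, and the substrates overlapped. The soft mean was 4811 ± 1531 CPM and the stiff mean 3630.1 ± 897 CPM (SD, 4 libraries per mean). Its log2 fold change was -0.41 (SE 0.24), with an edgeR adjusted p of 0.99997, and -0.22 without soft 4. The SD of its log2 CPM within a substrate was 0.42, near the median of 0.35 over tested genes at 5 CPM or more.

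7SL, the scaffold of the signal recognition particle, was counted in 2 near-identical genes on chromosome 12, Rn7s1 from 69159295 to 69159593 and Rn7s2 from 69361183 to 69361481. Because they share most of their sequence with each other and with many other copies, how reads were split between them is uncertain. Rn7s2 measured 57.4, 105, 81.9 and 92.6 CPM in the soft libraries, in order, and 50.3, 61.5, 91.5 and 50.1 CPM in the stiff ones. Stiff 3 was above 2 of the 4 soft libraries. The estimates were -0.41 (SE 0.23) for Rn7s2 and -0.24 (SE 0.24) for Rn7s1, neither past the test; for Rn7s2 the estimate ran from -0.64 without stiff 3 to -0.28 without soft 2. The third 7SL-like row, Rn7s6, was scarce, with 13 to 41 counts per library and a log2 fold change of -0.01 (SE 1.17).

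**Figure D3:**
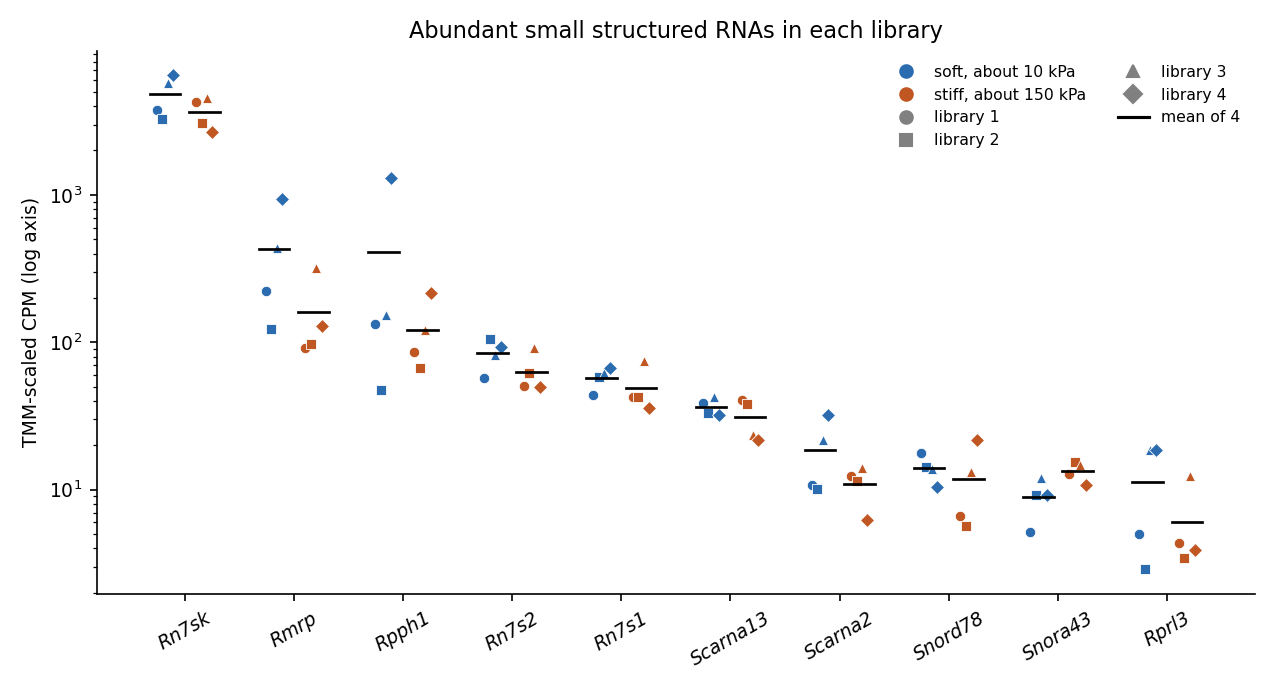
TMM-scaled CPM on a log axis (y axis) of the 10 members with a mean of 5 CPM or more (x axis), with 1 point per library (soft blue, stiff orange, symbol by library number) and a line at the mean of 4. Rpph1 in soft 4 stands at 1309.7 CPM, while soft 1 to 3 lie between 47.5 and 154 CPM.

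The RNase RNAs varied most among the abundant members. Rmrp (ENSMUSG00000088088), the RNA of RNase MRP, measured 223, 123, 434 and 942 CPM in soft 1 to 4 and 92.0, 97.5, 319 and 129 CPM in stiff 1 to 4, a 10.2-fold range over the 8 libraries. Soft 4 was the highest, soft 3 and stiff 3 followed, and the substrates overlapped. The soft mean was 431 ± 365 CPM and the stiff mean 159 ± 108 CPM (SD, 4 libraries per mean). The log2 fold change was -1.43 (SE 0.70; edgeR adjusted p = 0.99997), and it went to -0.70 without soft 4 and to -2.02 without stiff 3.

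Rpph1 (ENSMUSG00000092837), the RNA of RNase P, had the widest range of the abundant members. Its levels were 132, 47.5, 154 and 1309.7 CPM in soft 1 to 4 and 85.7, 66.9, 121 and 215 CPM in stiff 1 to 4, a 27.6-fold range. Soft 1 to 3 overlapped the stiff libraries, and soft 2 was the lowest of all. The log2 fold change of -1.75 (SE 1.10; edgeR adjusted p = 0.99997) therefore rested on soft 4, and without that library it was 0.14. Its neighbour Parp2, a DNA repair gene whose start lies beside it, stood at 36.7 CPM in soft 4, at 28.1 to 33.6 CPM in soft 1 to 3, and was highest in stiff 3, at 49.5 CPM. Ccdc107, beside Rmrp, had an estimate of -0.47 (SE 0.29) and was highest in soft 4, at 24.2 CPM, and C920006O11Rik, beside Rn7sk, was highest in soft 1, at 4.71 CPM.

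Rprl3, an RNase P RNA-like gene at chromosome 8 from 3803125 to 3803359, was far scarcer. It had 152, 82, 524 and 562 counts in soft 1 to 4 and 124, 101, 416 and 134 counts in stiff 1 to 4. Soft 3, soft 4 and stiff 3 were again the highest. Its log2 fold change was -0.90 (SE 0.60), and it did not pass the test; it was -0.54 without soft 4 and -1.53 without stiff 3.

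The same 3 libraries led for several members. Soft 3, soft 4 and stiff 3 were the 3 highest libraries for Rn7sk, Rn7s1, Rmrp, Rprl3 and Scarna2, 5 of the 34 members; the same held for 5.42% of all tested genes and for 5.99% of those at a mean of 5 CPM or more. This set of libraries was chosen after the values were seen. Soft 4 was the highest library for 8 members (4 of the 10 at a mean of 5 CPM or more), against 19.5% of all genes.

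The sums of histone genes and of fibroblast markers were high in those libraries too. The 65 histone genes summed to 0.0351%, 0.0248%, 0.0680% and 0.135% of coding counts in soft 1 to 4 and to 0.0269%, 0.0246%, 0.0569% and 0.0469% in stiff 1 to 4. Soft 4 was the highest library for 42 of the 48 histone genes tested, but for only 1 of the 5 fibroblast markers. The 5 fibroblast markers, none of them at 0, summed to 7315, 7798, 12627 and 12662 CPM in soft 1 to 4 and to 6742, 7495.5, 10575 and 9259.9 CPM in stiff 1 to 4, and 3 of the 5 (Col1a1, Col1a2 and Col3a1) had soft 3, soft 4 and stiff 3 as their highest libraries, as did 26 of the 48 histone genes. The 6 cardiomyocyte markers, none at 0, were highest in soft 4, at 37201 CPM, and next in stiff 4, at 32102 CPM. The part of histone, fibroblast or cardiomyocyte RNA in the levels of the structured RNAs was not tested.

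**Figure D4:**
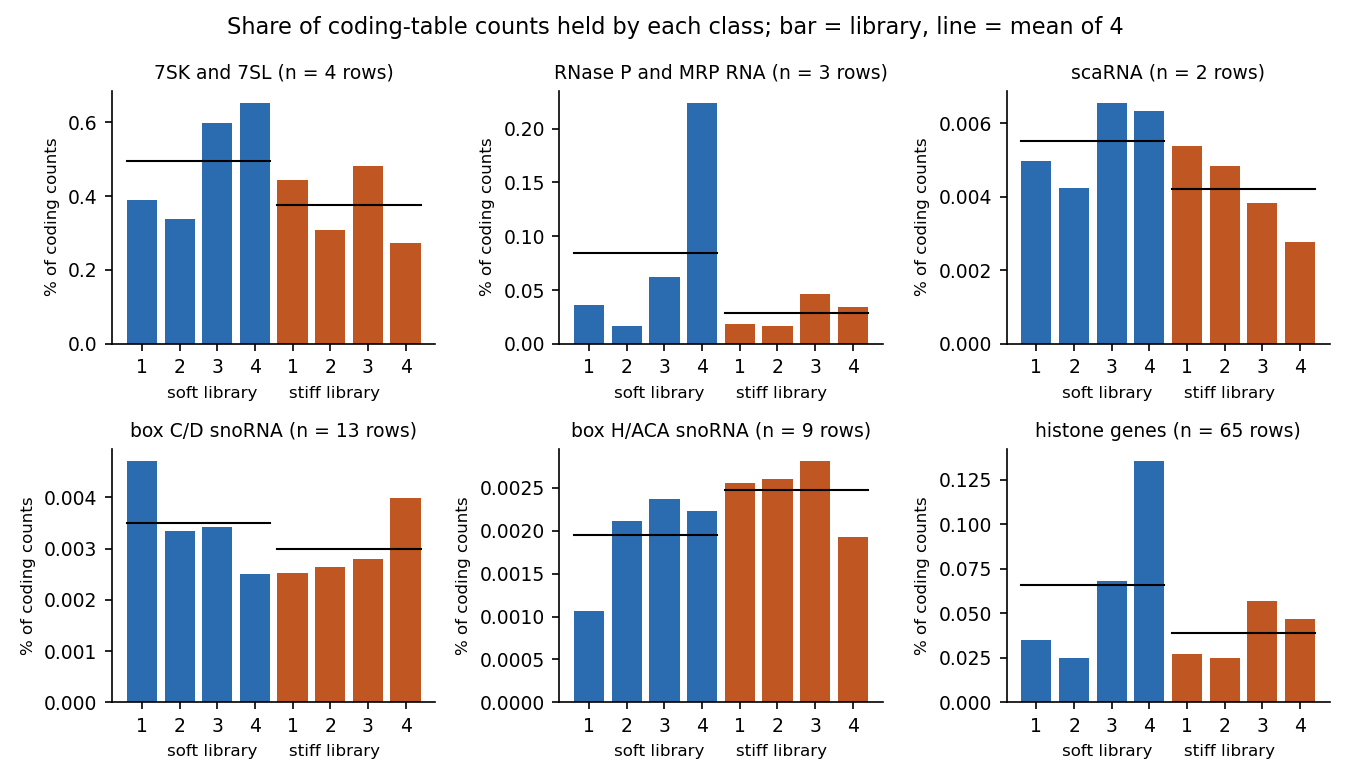
Share of coding-table counts in percent (y axis, from 0, scaled per panel) held by 5 classes of structured RNA and by histone genes in soft libraries 1 to 4 (blue) and stiff libraries 1 to 4 (orange), with a line at the mean of 4. 7SK and 7SL, RNase RNAs and histone genes were highest in soft 4, at 0.653%, 0.224% and 0.135%. The shares of scaRNAs and of the 2 snoRNA classes were not.

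Summed by class, the libraries of the substrates overlapped for each of the 6 classes. The 7SK and 7SL rows held 0.495 ± 0.155% of coding counts on soft and 0.376 ± 0.101% on stiff (SD, 4 libraries per mean), a difference that ran from -0.171 percentage points without soft 2 to -0.0656 without soft 4. The RNase RNAs held 0.0848 ± 0.0947% on soft and 0.0289 ± 0.0142% on stiff, and leaving out soft 4 moved the difference from -0.0559 to -0.00942 percentage points. The scaRNAs held 0.00553 ± 0.00111% and 0.00421 ± 0.00115%, the box C/D snoRNAs 0.00349 ± 0.000909% and 0.00298 ± 0.000681%, and the box H/ACA snoRNAs 0.00195 ± 0.000595% and 0.00248 ± 0.000380%. The snRNAs held 0.000430 ± 0.000242% and 0.000264 ± 0.000224%. With 1 library left out, the difference ran from -0.000845 to -0.000105 percentage points for box C/D snoRNAs, whose smallest value came without soft 1, and from 0.000237 (without soft 1) to 0.000712 (without stiff 4) for box H/ACA snoRNAs. Estimates were lower on stiff for 4 of 4 rows of 7SK and 7SL, 3 of 3 RNase RNAs, 2 of 2 scaRNAs, 3 of 3 snRNAs and 8 of 13 box C/D snoRNAs, and for 4 of 9 box H/ACA snoRNAs. None of these members passed.

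Both scaRNA members were counted in every library. Scarna13 measured 38.5, 33.2, 42.8 and 32.0 CPM in soft 1 to 4 and 40.5, 38.4, 23.3 and 21.8 CPM in stiff 1 to 4, with a log2 fold change of -0.24 (SE 0.25). Stiff 3 and stiff 4 were the lowest, and the estimate was -0.10 without stiff 4 and -0.39 without stiff 1. Scarna13 lies on chromosome 12 from 105031075 to 105031349 inside the host gene Snhg10 and encloses the precursor of a microRNA, so a read from that stretch could belong to either. The hairpin (chr12:105031077-105031141, minus strand) is shown with its 2 mature arms in capitals.
Mir3069 hairpin inside Scarna13: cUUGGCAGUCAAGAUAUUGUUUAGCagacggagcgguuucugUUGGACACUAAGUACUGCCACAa
Scarna2, which guides modification of an snRNA, had 326, 289, 613 and 973 counts in soft 1 to 4 and 352, 335, 466 and 213 counts in stiff 1 to 4. It had the lowest unadjusted edgeR p of the members, 0.0649, for an estimate of -0.77 (SE 0.39) with an adjusted p of 0.99997. In CPM, soft 3 and soft 4 were above every stiff library and soft 1 and soft 2 below 3 of them; without soft 4 the log2 fold change was -0.36.

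The snRNAs of the spliceosome, which recognise splice sites and branch points, were barely counted. Rnu2-10, a gene for the U2 snRNA, had 76, 41, 19 and 125 counts on soft and 45, 9, 34 and 128 on stiff. Rnu11, of the minor spliceosome, had 39, 87, 4 and 41 counts on soft and 45, 7, 0 and 30 on stiff, and Rnu5g, a U5 gene, had 65, 0, 0 and 17 on soft and 12, 0, 1 and 26 on stiff. The substrates overlapped for each of the 3. Their log2 fold changes were -0.39 (SE 1.00), -1.11 (SE 1.41) and -1.14 (SE 1.86). The estimate changed sign without soft 4 for Rnu2-10 (0.12) and without soft 1 for Rnu5g (0.68), and that of Rnu11 ran from -1.96 without stiff 1 to -0.46 without soft 2. Rnu2-10 and Rnu5g belong to families with near-identical copies, and the counts of all 3 snRNAs are uncertain.

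Among the box C/D snoRNAs, Snord78 had the most counts. It measured 17.6, 14.4, 13.7 and 10.4 CPM in soft 1 to 4 and 6.63, 5.65, 13.1 and 21.6 CPM in stiff 1 to 4, and the stiff libraries enclosed the soft ones. Its log2 fold change was -0.25 (SE 0.40), -0.02 without stiff 2 and -0.73 without stiff 4. Snord47, in the host gene Gas5 on chromosome 1, had 119, 94, 32 and 64 counts on soft and 149, 243, 0 and 60 on stiff, with an estimate of 0.54 (SE 1.05) that turned to -0.17 without stiff 2. Snord65 had the largest positive estimate, 2.45 (SE 1.28; edgeR adjusted p = 0.99997), from 6, 16, 0 and 28 counts on soft and 66, 20, 120 and 91 on stiff. Stiff 2 lay below soft 4. Snord50a had 172, 57, 95 and 22 counts on soft and 19, 54, 0 and 46 on stiff, and an estimate of -1.61 (SE 1.18), with substrates that overlapped. Rnu3a, a gene for U3, the box C/D snoRNA that takes part in ribosomal RNA cleavage, had 27 to 108 counts on soft and 68, 70, 1 and 110 on stiff. The remaining box C/D members had estimates between -1.71 (Snord60) and 0.78 (Snord49a).

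Among the box H/ACA snoRNAs, Snora43, inside the host gene Snhg7, had the most counts. It measured 5.17, 9.18, 12.0 and 9.14 CPM in soft 1 to 4 and 12.7, 15.4, 14.8 and 10.7 CPM in stiff 1 to 4. Of the stiff libraries, 3 were above all soft ones and stiff 4 was below soft 3. The log2 fold change was 0.60 (SE 0.33; edgeR adjusted p = 0.99997), and its sign held whichever library was left out, from 0.41 to 0.77. Snora9 had 19, 62, 63 and 34 counts on soft and 183, 155, 66 and 58 on stiff, with an estimate of 1.32 (SE 0.79); soft 2 and soft 3 lay within the stiff range. The other 7 had estimates between -1.55 (Snora44) and 1.84 (Snora16a), with standard errors above 1.

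SnoRNAs inside 1 host had unequal counts in the same library. The 4 members inside Snhg12 on chromosome 4, Snora16a, Snora44, Snora61 and Snord99, had 0, 0, 202 and 8 counts in stiff 3 and 61, 15, 12 and 67 in stiff 4. Snora61 was thus at its highest in the library where Snora16a and Snora44 were at 0. Their estimates were 1.84 (SE 1.65), -1.55 (SE 1.31), -0.12 (SE 1.11) and -0.88 (SE 1.59), with 95% intervals that all overlapped. The 2 members inside 2410006H16Rik, Snord49a and Snord65, had estimates of 0.78 (SE 1.25) and 2.45 (SE 1.28). Stretches of 30 bases around the RefSeq start sites of 4 hosts are shown because many snoRNA hosts are known to begin with a run of pyrimidines. Snhg7 and Snhg8 are among the hosts that do so in the reference, and Snhg12 and 2410006H16Rik hold more than 1 member. Capitals mark the unbroken run of C and T from the first transcribed base.
Snhg7, chr2:26640225-26640254, minus strand: gatgctcggcCTCTCggcagccatggcggc
Snhg8, chr3:123508317-123508346, minus strand: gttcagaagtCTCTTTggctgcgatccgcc
Snhg12, chr4:132308668-132308697, plus strand: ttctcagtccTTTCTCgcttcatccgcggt
2410006H16Rik, chr11:62602867-62602896, plus strand: cgccgtctttCTCTgcggccatcatgggat
A window whose start site lay within 100 bases of the RefSeq edge of the gene was available for 12 enclosing genes of members. Of these, 4 (Snhg7, Snhg8, Gm36220 and 5730408K05Rik) began with C in a run of 5 or more pyrimidines, against 2.49% of 22803 such windows. Snhg12 began with T, and the run of 2410006H16Rik was 4 bases long. Gas5, Snhg9, Snhg10, Snhg14, 1110038B12Rik and Lbhd1 had no run at the start. Start sites are those of RefSeq and were not measured here.

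The scarce members were often at 0 in single libraries. Of the 24 members under a mean of 5 CPM, 9 had 0 counts in stiff 3, against 0 to 3 in each of the other libraries. The same library was at 0 for 5.06% of all tested genes and for 25.1% of the 2795 tested genes under 5 CPM, and each of the others for 5.22% to 10.6%, although stiff 3 had 32412633 counts in all. A count of 0 there allows up to 0.0900 CPM (3 counts; counting error only). Among these genes the median SD of log2 CPM within a substrate was 1.55 for members and 1.496 for all; at 5 CPM or more it was 0.54 for the 10 members and 0.35 for all 11264 genes.

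**Figure D5:**
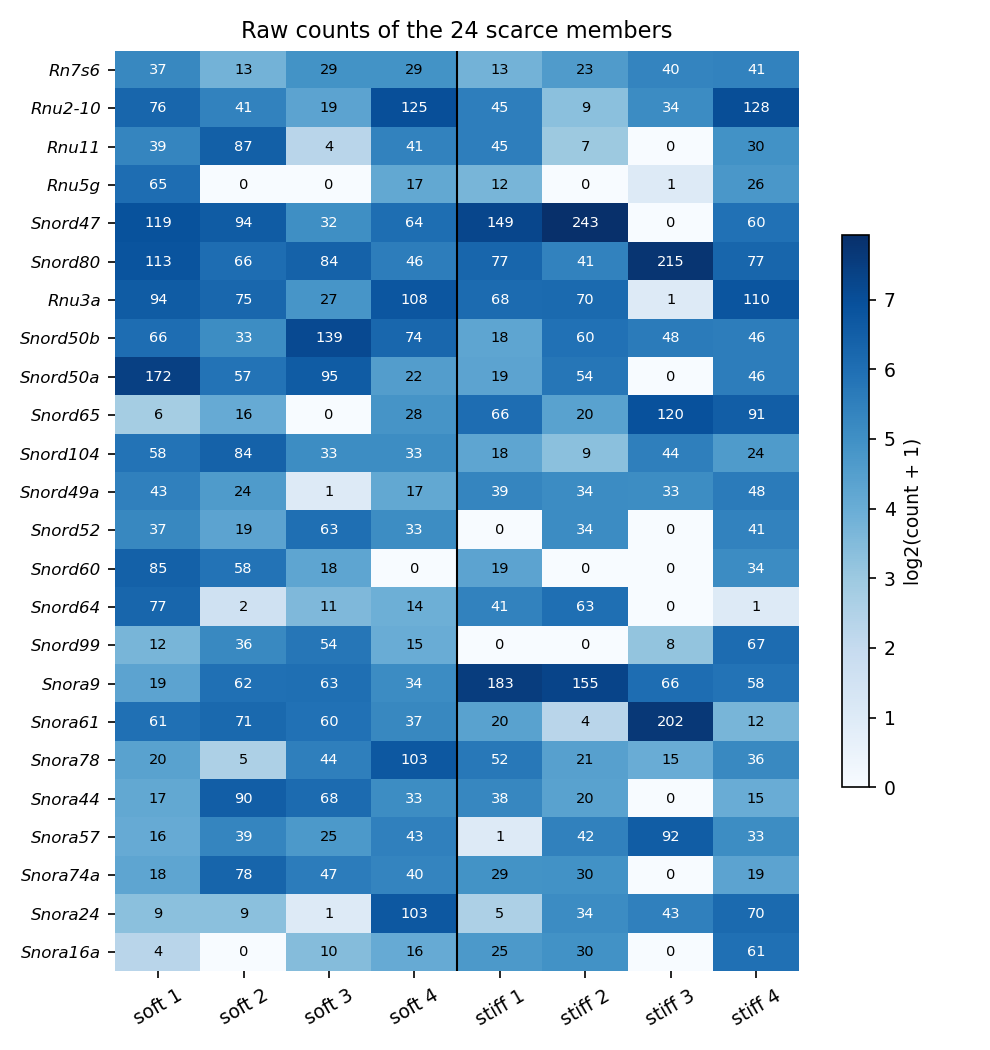
Raw counts (numbers in cells; colour, log2 of count plus 1) of the 24 members with a mean under 5 CPM (rows, by class) in the 8 libraries (columns, soft left of the line). Stiff 3 is at 0 for 9 of them, and no row separates the substrates.

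The protein partners of these RNAs were measured in the same fit. Over 16 lists of partner and related genes, 156 genes were tested; 81 had higher and 75 lower estimates on stiff, 0 passed (0.0% of all genes tested did) and the median log2 fold change was 0.01. Among the core proteins of box C/D particles, which include the methyltransferase fibrillarin, 1 of 4 was higher, and the estimate of Nop58 was 0.19 (SE 0.24). Among the core proteins of box H/ACA particles 3 of 4 were higher, with Nop10 at -0.17 (SE 0.26). Of 15 assembly and Cajal body genes 8 were higher, with Tgs1, which trimethylates the caps of snRNAs and snoRNAs, at 0.49 (SE 0.23) and the export adaptor gene Phax at -0.16 (SE 0.21). Of 36 Sm, LSm and other snRNP protein genes 20 were higher, with Sart1 at -0.34 (SE 0.23) and the branch-site factor gene Sf3b1 at -0.11 (SE 0.17). In the minor spliceosome 5 of 8 were higher, with Zmat5 at 0.73 (SE 0.49) and Snrnp48 at 0.20 (SE 0.23).

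Partners of 7SK, 7SL and the RNase RNAs did not pass either. In the 7SK particle 3 of 7 were higher: Larp7, which binds the 3' end of 7SK, averaged 23.4 ± 11.2 CPM in the soft and 31.2 ± 9.79 CPM in the stiff libraries (SD, 4 libraries per mean), an estimate of 0.42 (SE 0.32), and the cyclin gene Ccnt2 was at -0.06 (SE 0.20). Of 9 signal recognition particle and receptor genes 5 were higher, with Srp72 at 0.04 (SE 0.17) and the scarce Srp54a at 1.02 (SE 1.56). Of 10 RNase P and MRP protein genes 3 were higher, with Pop1 at 0.49 (SE 0.35) and Pop4 at -0.10 (SE 0.24), while Rpph1 and Rmrp differed between libraries by 27.6-fold and 10.2-fold. Of 5 Ro, La and vault protein genes 4 were higher, with Tep1 at 0.14 (SE 0.20) and the Ro protein gene Trove2 at 0.10 (SE 0.26). The telomerase protein gene Tert had an estimate of 0.45 (SE 0.48).

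Genes that make and trim these RNAs were likewise mixed. Of 27 transcription factor and RNA polymerase III genes 12 were higher; Gtf3c3, a subunit of the polymerase III factor TFIIIC, averaged 84.8 ± 6.19 CPM in the soft and 114 ± 27.1 CPM in the stiff libraries (SD, 4 libraries per mean), an estimate of 0.43 (SE 0.18) with an edgeR adjusted p of 0.99997, and Gtf3c1 was at -0.04 (SE 0.16). Of 14 genes of the Integrator, which cuts the 3' ends of snRNAs, 8 were higher. Ints13 was at 0.29 (SE 0.18) and Ints14, named after its values were seen, at -0.34 (SE 0.22). Over all lists these were the only 2 of 156 genes whose substrates did not overlap, against 1.29% of all tested genes. Of 8 trimming and decay genes 3 were higher, with Dis3 at 0.24 (SE 0.27) and Mtrex at 0.13 (SE 0.17). Of 6 genes that process histone messages with the U7 snRNP 4 were higher, with Lsm10 at -0.35 (SE 0.29) and Npat at 0.05 (SE 0.21). Of 19 listed noncoding hosts 2 were tested, Meg3 at 0.08 (SE 0.22) and Snhg18 at -0.15 (SE 0.21); Malat1 and Neat1, nuclear RNAs cut by RNase P, were not analysed here.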

How the data were processed

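RNA of 8 libraries (4 soft, 4 stiff) was sequenced with standard Illumina preparation, per the labels' protocols. The authors deposited raw counts per Ensembl gene (whole numbers, not normalized); the table of noncoding IDs was not used. HTSeq 0.6.1, TopHat2 2.0.14, TopHat, Bowtie2, Cufflinks, FastQC 0.11.2, edgeR, DESeq2 and the build GRCm38 are listed by the authors, per the submitters' processing notes; no source used here gives their roles, the strand handling or the annotation release. Symbols came from a table of gene names (29150 of 29844 IDs matched), and spans and sequences from RefSeq on GRCm38.p6, which gave a span for 168 of 177 RNAs and no strand or sequence for them.

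The test was that of edgeR 4.0.16 (R 4.3.3): filterByExpr (minimum count 10, minimum total 15), TMM, robust quasi-likelihood F test of substrate, Benjamini-Hochberg adjustment over the 14059 genes tested, call at adjusted p under 0.05. A positive log2 fold change means a higher level on stiff; each has a standard error (SE) and unadjusted 95% interval. The minimum for members can be met by 1 substrate alone. Classes were described by their sums with no test. Per class, the 2 most abundant members and the 2 with the smallest p were named, and per partner list the gene with the smallest p and the most abundant; other members named are given to account for all 34 and were chosen after their values were seen. Members and lists were chosen with earlier results of these data known. Alternatives were other scaling factors, filters, DESeq2 1.42.0, limma-voom (limma 3.58.1), a fold threshold of 1.2, a replicate block and leaving out each library. On simulated counts of 14059 genes, the test recovered 44 of the 66 genes altered by 4-fold, 16 of the 67 by 2-fold and 1 of the 67 by 1.5-fold, with 3 false calls. The altered genes were drawn from all tested genes, so these counts do not give the recovery for the members. The median SD of log2 CPM within a substrate was 1.35 for members and 0.41 for all tested genes. Reads are not independent molecules, so counting limits cover counting error only. No 2 libraries agreed within sampling noise (chi-square per degree of freedom 44.8 to 224 over 28 pairs).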

Additional observations from a re-analysis of the deposited data

Results flagged for a closer look

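Of 44 groups of 4 libraries checked, for 16 named members and 6 class sums on each substrate, 3 had a library far from the other 3 by Dixon's criterion at the 95% level; chance alone marks about 1 in 20. Rpph1 stood at 1310 CPM in soft 4, against 47.5 to 154 CPM in soft 1 to 3. Rmrp stood at 319 CPM in stiff 3, against 92.0 to 129 CPM in the other stiff libraries. Rprl3 stood at 12.5 CPM in stiff 3, against 3.44 to 4.37 CPM in the others.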

How the results depend on the processing

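No member and no partner gene was called under any of the 19 alternatives run (other scaling, filters, tools and threshold, the replicate block, and each library left out), and the coding table had 0 calls under all of them except 1, a replicate block fitted in limma-voom and chosen after seeing the data, which called 5 genes, none of them members. At an unadjusted p under 0.05 there were 0 members in the reported fit, 1 with DESeq2, 1 with limma-voom, 1 with the replicate block, 4 with the block in limma-voom and 0 to 4 with 1 library left out. The median log2 fold change of the members was -0.62 with limma-voom, and ran from -0.55 to -0.25 with 1 library left out. The number of members with lower estimates on stiff ran from 21 to 25 with 1 library left out, and was 26 with limma-voom and 27 with the replicate block. Signs turned for 4 named members: Snord47 with limma-voom (-1.36), with the replicate block (-0.42) and with 1 library left out (-0.17 to 0.96), Rnu5g (-2.14 to 0.68), Rpph1 (-2.17 to 0.14) and Rnu2-10 (-1.17 to 0.12) with 1 library left out. For Rpph1 and Rnu2-10 that library was soft 4. Class differences kept their sign under each of the 12 alternatives run for them (11 for snRNAs); without Rn7sk that of 7SK and 7SL was -0.00285 percentage points, and without Snora43 that of box H/ACA snoRNAs was 7.41e-05. The replicate numbers follow sample order and the last digit of the library codes; deviations of libraries with equal numbers correlated at 0.104, 0.181, 0.128 and 0.305 across genes, all above 0.1, but the libraries numbered 1 correlated best with those numbered 2, and the labels do not say that a number marks a shared culture or day; whether the numbers pair the libraries is not known, and the fit without them is the one reported. Within equal numbers Rmrp and Rnu3a were lower on stiff in 4 of 4 pairs and Snora43 and Snord65 higher in 4 of 4, 11.8% of members against 9.96% of all tested genes; the replicate block gave 360 genes in the coding table an unadjusted p under 0.05, against 130 without it, and called 0. The stricter filter of 1 CPM in 4 libraries left 28 of the 34 members, and the 10-count minimum in all 8 libraries left no snRNA.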
